A study of Mus musculus with 8 samples.

Results

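The AP-1 family of transcription factors was followed across the 8 libraries of the series, as 10 genes chosen by symbol from the 55335 genes of the count table: the Fos genes Fos, Fosb, Fosl1 and Fosl2, the Jun genes Jun, Junb and Jund, and the relatives Atf3, Maff and Mafg. The tissue was the vagal ganglion, which holds the cell bodies of the sensory neurons of the vagus nerve, taken from wild-type mice 1.5 h after challenge number 4 with either HDM (house dust mite, an inhaled allergen) or saline. Each group had 4 libraries, and each library was a pool of 6 to 8 ganglia from 3 to 4 mice, so the spread between libraries holds differences between pools and not between single animals. Replicate numbers 1 to 4 equal a batch label, and each batch held 1 HDM and 1 saline pool. The labels used here name no strain, sex, age or dose.

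AP-1 is a dimer of basic leucine zipper proteins. Jun proteins can pair with each other or with a Fos protein, Fos proteins need a partner, and the dimers bind the same short DNA element in the control regions of many genes. Fos, Fosb, Junb and Atf3 are classed as immediate early genes, whose transcription rises briefly when a neuron fires or a cell meets a growth factor, stress or a cytokine. In sensory ganglia Fos serves as a mark of recent firing, while Jun and Atf3 are known for their rise after axon injury. Maff and Mafg are small Maf proteins, which lack a transactivation domain and act through their partners.

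Library totals lay between 23.95 and 26.67 mega-counts (M) in HDM and between 26.87 and 31.28 M in saline, without overlap. All 10 sensory neuron markers examined were detected, and their summed level was 10046 to 10777 CPM (counts put on the same library total with TMM factors) in HDM and 9548 to 9777 CPM in saline, again without overlap. Markers of satellite glia, myelinating Schwann cells, fibroblasts, endothelial cells, mural cells and macrophages were present, with summed levels whose ranges overlapped between the groups. So did those of sympathetic neurons (258 to 764 CPM in HDM and 121 to 334 CPM in saline), red blood cells (45.6 to 77.7 and 73 to 246 CPM) and lymphocytes and granulocytes (1.45 to 3.72 and 1.04 to 4.27 CPM). No marker was at 0 in all libraries. Some lists leaned one way between the groups. Of 10 sensory neuron markers 7 had a positive log2 fold change (median 0.14), and Prph, an intermediate filament gene, was called higher (0.26, edgeR adjusted p = 0.0219). Of 8 myelinating Schwann cell markers 7 had a negative one (median −0.16), and Pmp22, a myelin protein gene, was called lower (−0.23, edgeR adjusted p = 0.0336). Over all tested genes 1.23% were called higher and 0.159% lower. With the GC correction described below, Prph had 0.14 (edgeR adjusted p = 0.22) and Pmp22 −0.21 (0.158), and neither was called. Of 6 fibroblast markers 5 had a negative log2 fold change (median −0.12), with 0 called by edgeR. All 6 sympathetic markers had a positive log2 fold change (median 1.01) and all 5 red blood cell markers a negative one (median −0.89). EdgeR called 0 in either list. At an unadjusted p under 0.05, edgeR counted 6 sensory neuron markers as higher and 1 as lower, and 4 sympathetic markers as higher and 0 as lower. It counted 3 Schwann cell, 2 fibroblast and 4 red blood cell markers as lower and 0 of these as higher. The shares over all tested genes at this unadjusted threshold were 10.4% higher and 7.69% lower. The highest sympathetic sum was in HDM replicate 4 and the highest red blood cell sum in saline replicate 1. Whether HDM against saline changed a gene was tested over 17618 genes with edgeR's quasi-likelihood test, and a gene was called at a Benjamini-Hochberg adjusted p under 0.05.

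Of the 10 genes, 9 had enough counts to be tested. Junb and Jund rose in HDM and none fell. The 2 called genes compare with 1.38% of all tested genes called, 1.23% as higher and 0.159% as lower. Of the 9, 8 had a positive log2 fold change, and their median was 0.16, against 48.5% positive and a median of −0.01 over all tested genes. All 9 had a transcript GC content in the upper 4 of 10 GC bins of tested genes, however, and over the 7041 genes of those bins 70.1% were positive, with a median of 0.07. With a correction for GC content 6 of the 9 were positive with a median of 0.09, against 50.4% and 0.00 over all tested genes. At an unadjusted p under 0.05, edgeR counted 3 members as higher and 0 as lower, against 10.4% of all tested genes as higher and 7.69% as lower. DESeq2 called 3 as higher and 0 as lower, against 3.42% of genes called higher, and limma-voom 2 and 0, against 1.07%. With the replicate block edgeR called the same 2 genes, against 3.01% called higher. With the GC correction edgeR called 0 members and 0% of all tested genes. With the block and the GC correction together it called 0 members, against 0.227% of all tested genes. Without HDM replicate 1, HDM replicate 2 or saline replicate 3 it also called 0 members, and 0 of all genes. In 3 members, Junb, Jund and Fosl2, all HDM libraries lay above all saline libraries, which 6.25% of all tested genes also showed.

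**Figure D1:**
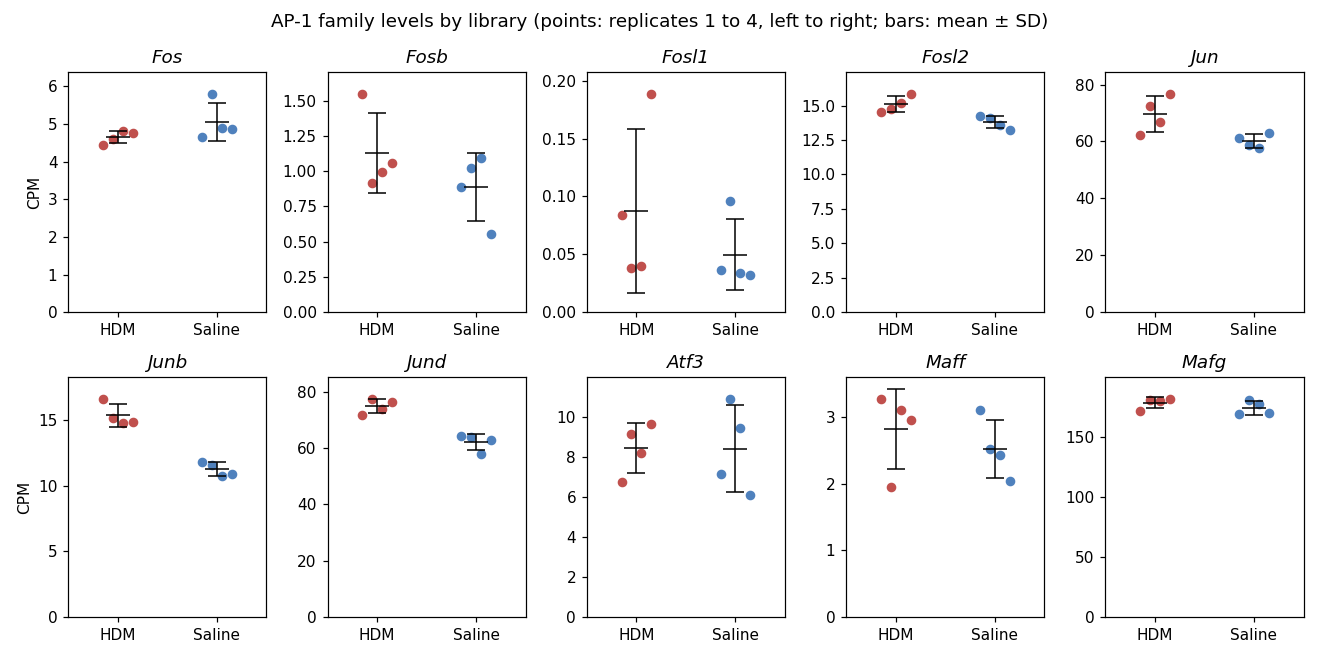
Level of each AP-1 family gene in CPM (vertical axis, from 0) in the 4 HDM and 4 saline libraries; points are libraries in the order of replicates 1 to 4, and bars give the mean ± SD. The Junb points lie between 14.7 and 16.6 CPM in HDM and between 10.7 and 11.8 CPM in saline, while the Fos, Atf3, Maff and Mafg points of the groups overlap.

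Compared per length, the family was led by Jund, Mafg and Jun. Levels in RPKM (reads per kilobase of gene, scaled by library total) were 41 for Jund on average over the 8 libraries, 31.4 for Mafg, 20.3 for Jun, 5.77 for Junb, 3.92 for Atf3, 2.06 for Fos, 1.49 for Fosl2, 1.03 for Maff, 0.161 for Fosb and 0.0338 for Fosl1. Neighbours in this order were apart in every library, except that Junb (4.67 to 7.20 RPKM) overlapped Atf3 (2.85 to 5.06 RPKM) and Fosb overlapped Fosl1. With the length of the longest annotated transcript instead of the deposited gene length, Fosl2 rose to 2.21 RPKM and Fos to 2.30, and the order of the means was the same. Whether neighbours were apart in every library was not examined with these lengths.

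The 3 Jun genes together had 73.3 ± 3.12 RPKM in HDM and 61 ± 2.46 RPKM in saline (SD, n = 4 each), and the 4 Fos genes 3.76 ± 0.124 and 3.74 ± 0.268 RPKM. Jun transcripts thus outnumbered Fos transcripts per length by 18.9 to 20.7 times in the HDM libraries and by 14.9 to 17.5 times in the saline libraries. Within the Fos genes, Fos made up 51.3% to 53.9% of the summed RPKM in HDM and 54.7% to 59.7% in saline, and Fosl2 most of the rest. The sums, ratios and shares given here, also those of the Jun genes, hold for the deposited gene lengths and were not taken with others. With the longest annotated transcript Junb had a mean of 7.34 RPKM instead of 5.77, and Jun and Jund kept theirs. Fos, Fosb and Fosl2 rose from 2.06, 0.161 and 1.49 to 2.30, 0.266 and 2.21 RPKM. The ratio of Jun to Fos genes and the share of Junb thus depend on the length used. The means of Fos and Fosl2 were closer with the longest annotated transcript. Within the Jun genes, Jund made up 59.9% to 61.8% in HDM and 60.3% to 62% in saline, and Junb 8.46% to 10.3% and 7.61% to 8.16%. The share of Jund overlapped between the groups, and that of Junb did not. These sums, shares and ratios were taken without a correction for GC content. Transcript GC content was 67.1% for Jund, 62.6% for Junb and 51.9% for Fos, so the differences between the groups in them carry the limit given below for GC content.

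**Figure D2:**
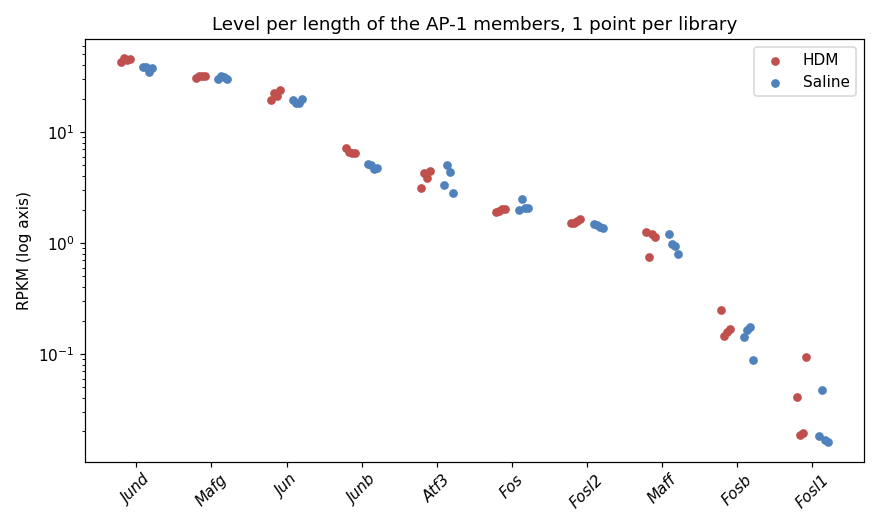
Level per length of the 10 genes in RPKM (logarithmic vertical axis), ordered by their mean, with 1 point per library, HDM left and saline right of each position. Jund has the highest mean (41 RPKM) and Fosl1 the lowest (0.0338 RPKM).

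Among the Jun genes, which can bind DNA without Fos, Junb had the largest called difference. Junb (ENSMUSG00000052837, GRCm38 chromosome 8, 84974484 to 84978718) encodes a subunit with weaker activation than Jun at many sites that can also oppose Jun. Its level was 16.6, 15.2, 14.7 and 14.8 CPM in HDM replicates 1 to 4 and 11.8, 11.6, 10.7 and 10.9 CPM in saline replicates 1 to 4, from 314 to 398 counts per library. Every HDM library was above every saline library. Junb rose 1.36-fold (95% interval 1.22 to 1.52; log2 fold change 0.45, SE 0.075, edgeR adjusted p = 0.0173). The log2 ratio of HDM to saline was 0.47, 0.37, 0.44 and 0.43 in batches 1 to 4, so all batches showed a difference of similar size. The CV between libraries, 5.53% in HDM and 4.56% in saline, was close to the 5.26% that counting alone gives at this depth.

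Jund (ENSMUSG00000071076, chromosome 8, 70698949 to 70700616), a gene of 1 exon whose product is the Jun protein most abundant in many resting cells, had 71.7, 77.4, 73.9 and 76.1 CPM in HDM and 64.3, 63.7, 57.8 and 62.7 CPM in saline. The groups did not overlap, and saline replicate 3 was the lowest library. Jund rose 1.20-fold (95% interval 1.12 to 1.29; log2 fold change 0.27, SE 0.048, edgeR adjusted p = 0.0216). Its log2 ratio was positive in all batches and ran from 0.16 in batch 1 to 0.35 in batch 3.

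Both calls were lost in some of the fits without a single library. Over all these fits the log2 fold change stayed between 0.41 and 0.47 for Junb and between 0.23 and 0.29 for Jund. For Junb the edgeR adjusted p was 0.0896 without HDM replicate 1, 0.0964 without HDM replicate 2 and 0.0926 without saline replicate 3, with log2 fold changes of 0.41, 0.45 and 0.43, and it passed in the other 5 such fits. For Jund it was 0.0896, 0.103, 0.0626 and 0.0959 without HDM replicate 1, 2 or 4 or saline replicate 3, with log2 fold changes of 0.29, 0.25, 0.26 and 0.23, and it passed in the other 4. Without HDM replicate 1, HDM replicate 2 or saline replicate 3, 0 of all genes passed in edgeR.

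Jun (ENSMUSG00000052684, chromosome 4, 95049034 to 95052222), also of 1 exon, encodes c-Jun, the target of the Jun N-terminal kinases. It had 62.2, 72.3, 66.8 and 76.8 CPM in HDM and 61.4, 58.7, 57.7 and 63 CPM in saline. HDM replicate 1 lay within the saline range and the other HDM libraries above it. The log2 fold change was 0.21 (SE 0.061; fold 1.16, 95% interval 1.05 to 1.27) and did not pass in edgeR (adjusted p = 0.104, and 0.0528 with the replicate block), though it passed in DESeq2 (adjusted p = 0.0445). Its log2 ratio was 0.02 in batch 1 and 0.21 to 0.30 in the other batches. The CV of Jun in HDM, 9.14%, was above the 2.37% given by counting.

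The RNA of Junb and Jund is rich in G and C, and this property moved with the groups. Transcript GC content was 62.6% for Junb and 67.1% for Jund, higher than in 98.6% and 99.7% of tested genes. The GC content averaged over transcripts and weighted by CPM was 48.8% to 48.9% in the HDM libraries and 48.4% to 48.7% in the saline libraries, without overlap. Over all tested genes the median log2 fold change rose from −0.09 in the 1761 genes with the lowest GC content to 0.12 in the 1761 with the highest, where 6.53% were called higher. Among the 319 tested genes with at least 62% GC the median was 0.18, with quartiles of 0.05 and 0.30, so Jund lay within the middle of these genes and Junb above their upper quartile.

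With a GC correction per library, Junb had a log2 fold change of 0.31 (95% interval 0.16 to 0.46, edgeR adjusted p = 0.158) and Jund 0.10 (0.01 to 0.20, adjusted p = 0.36). Jun had 0.13 (adjusted p = 0.405). Corrected levels of Junb were 13.9 to 15.8 CPM in HDM and 11.7 to 11.9 CPM in saline and still did not overlap, as in 4.13% of tested genes that were higher throughout. Corrected levels of Jund, 67.7 to 73 CPM in HDM and 63.6 to 69.3 CPM in saline, overlapped. Those of Fosl2, given below, stayed apart. In this fit edgeR called 0 of all tested genes, or 0%, (2099 at an unadjusted p under 0.05, 3 of them members). With the replicate block and the GC correction together, Junb had 0.31 (edgeR adjusted p = 0.104) and 0.227% of tested genes were called. The part of GC content in the rise of Junb and Jund was not tested beyond this correction. The part of the sensory neuron, Schwann cell, fibroblast, sympathetic and red blood cell markers was not tested. After the GC correction the medians of these marker lists were 0.07, −0.19, −0.14, 0.98 and −0.90, in that order. In bulk tissue a change in the number of cells of a type and a change in RNA per cell cannot be told apart.

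**Figure D3:**
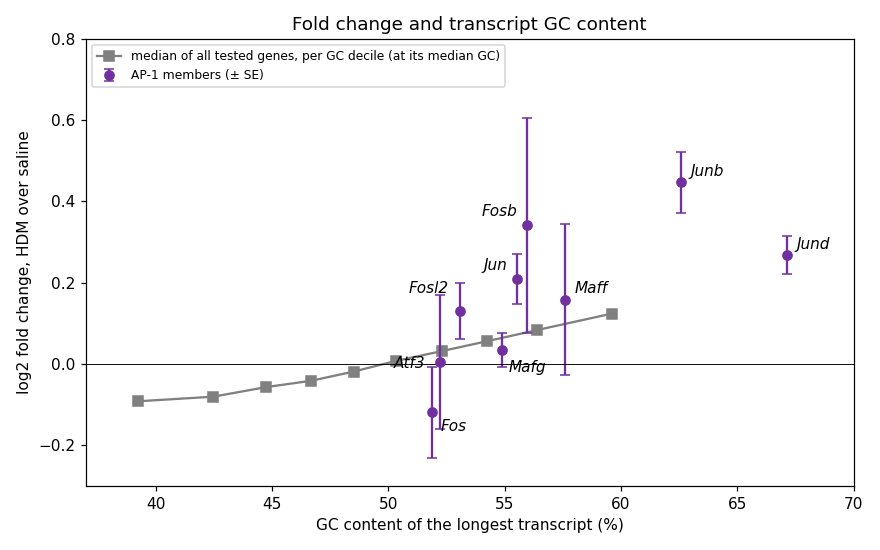
Log2 fold change of HDM over saline (vertical axis) against the GC content of the longest transcript in percent (horizontal axis); circles are the 9 tested AP-1 genes ± SE, and squares are the median of all tested genes in 10 bins of GC content. The squares climb from −0.09 to 0.12, with Junb at 0.45 and Jund at 0.27 at the right edge.

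**Figure D4:**
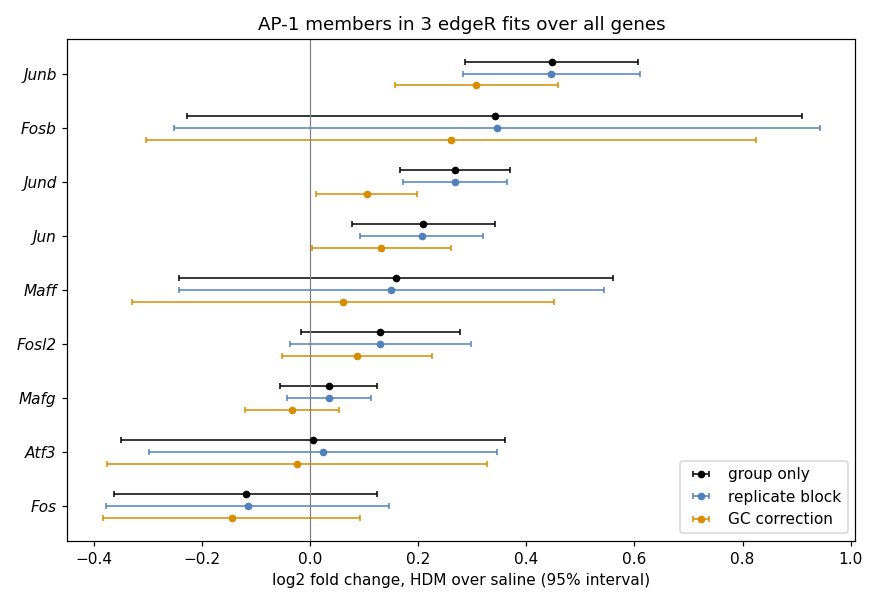
Log2 fold change of HDM over saline with its 95% interval (horizontal axis) for the 9 tested AP-1 genes in 3 edgeR fits: group only, with the replicate block, and with the GC correction. The Junb interval stays above 0 in each fit, and the Fos and Atf3 intervals span 0 in each.

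The 250 bases upstream of a RefSeq start site (GRCm38.p6) are shown for Junb, which was called, and for Jun and Fos, which were not, as textbook examples of promoters that answer to serum, cAMP and stress signals. They are written 5′ to 3′ on the strand of the gene, with capitals marking matches to the motifs listed after them. Junb lies at chr8:84978749-84978998 (minus strand), Jun at chr4:95052223-95052472 (minus strand) and Fos at chr12:85473640-85473889 (plus strand).
Junb: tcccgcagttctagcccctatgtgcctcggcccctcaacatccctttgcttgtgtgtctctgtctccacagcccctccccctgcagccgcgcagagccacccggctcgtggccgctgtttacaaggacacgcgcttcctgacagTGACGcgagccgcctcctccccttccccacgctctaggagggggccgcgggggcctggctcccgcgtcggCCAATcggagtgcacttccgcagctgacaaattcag
Jun: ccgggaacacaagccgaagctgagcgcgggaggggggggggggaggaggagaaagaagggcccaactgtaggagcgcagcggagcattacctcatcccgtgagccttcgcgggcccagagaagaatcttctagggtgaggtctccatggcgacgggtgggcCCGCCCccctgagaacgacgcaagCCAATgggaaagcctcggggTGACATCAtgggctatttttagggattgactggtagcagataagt
Fos: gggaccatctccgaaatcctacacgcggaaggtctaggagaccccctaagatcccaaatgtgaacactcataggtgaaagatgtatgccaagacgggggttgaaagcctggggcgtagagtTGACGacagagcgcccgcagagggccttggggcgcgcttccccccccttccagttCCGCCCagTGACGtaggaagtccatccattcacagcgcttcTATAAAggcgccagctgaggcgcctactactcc
The motifs were a CRE core (TGACG), a full CRE (TGACGTCA), an AP-1 site (TGACTCA), the variant TGACATCA known from the Jun promoter, a GC box (GGGCGG) and a CCAAT box (CCAAT), each on both strands, a CArG box on both strands, and a TATA box (TATAAA) on the gene's strand. The full CRE contains the CRE core. Junb had 1 CRE core, at −106 to −102 from the start site, and 1 CCAAT box. Jun had the TGACATCA site at −45 to −38, 1 GC box and 1 CCAAT box. Fos had 2 CRE cores, at −129 to −125 and −66 to −62, 1 GC box and a TATA box at −33 to −28. Of 32851 RefSeq windows of this length, 17.8% held a CRE core, 2.93% the TGACATCA site, 32.7% a GC box, 33.8% a CCAAT box and 7.59% the TATA box. The AP-1 site (4.46% of all windows) and the CArG box (1.47%) had no match in these 3 windows, which says only that their letters are not in them. These are letter matches and no measured binding. For Jund the RefSeq start lies 1210 bases upstream of the GENCODE start, and its window is not shown.

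The Fos genes, whose products need a partner, showed no called difference. Fos (ENSMUSG00000021250, chromosome 12, 85473890 to 85477273) had 4.44, 4.61, 4.81 and 4.76 CPM in HDM and 4.64, 5.80, 4.89 and 4.87 CPM in saline, from 106 to 182 counts per library. The groups overlapped, and saline replicate 2 was the highest library. The fold was 0.92, with a 95% interval from 0.78 to 1.09 (log2 fold change −0.12, SE 0.11, edgeR adjusted p = 0.612). Without saline replicate 2 the log2 fold change was −0.05, with an upper limit of 1.15-fold. HDM was below saline in 4 of 4 batches, by 0.02 to 0.30 on the log2 scale. The CV of Fos in HDM, 3.60%, was below the 8.63% expected from counting alone. In each library Junb exceeded Fos per length, by 3.13 to 3.82 times in HDM and 2.04 to 2.60 times in saline, and these ranges did not overlap. These ratios were also taken with the deposited gene lengths and without the GC correction.

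Fosl2 (ENSMUSG00000029135, chromosome 5, 32135801 to 32157842), which encodes Fra-2, a Fos protein without the strong activation domain of Fos, had 14.6, 14.8, 15.2 and 15.9 CPM in HDM and 14.2, 14.1, 13.6 and 13.2 CPM in saline. All HDM libraries were above all saline libraries, but the ranges almost touched. The log2 fold change was 0.13 (SE 0.068; fold 1.09, 95% interval 0.99 to 1.21, edgeR adjusted p = 0.33). It was positive in 4 of 4 batches, from 0.03 to 0.25. After the GC correction the log2 fold change was 0.09 (edgeR adjusted p = 0.633). Corrected levels were 14.35 to 15.45 CPM in HDM and 13.59 to 14.30 CPM in saline and still did not overlap. Of all tested genes 4.13% were higher in HDM throughout after this correction.

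Fosb (ENSMUSG00000003545, chromosome 7, 19302696 to 19310051), the gene of FosB and of its long-lived short form ΔFosB, had 17 to 37 counts per library. Its level was 1.55, 0.914, 0.993 and 1.06 CPM in HDM and 0.884, 1.02, 1.09 and 0.552 CPM in saline. HDM replicate 1 was the highest library and saline replicate 4 the lowest, and the others overlapped. The log2 fold change of 0.34 (SE 0.26, edgeR adjusted p = 0.526) was 0.16 without HDM replicate 1 and 0.16 without saline replicate 4. The 95% interval, 0.85-fold to 1.88-fold, was the widest of the tested members. Counts per gene do not separate the splice forms of Fosb.

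Fosl1 (ENSMUSG00000024912, chromosome 19, 5447547 to 5455946), the gene of Fra-1, had 2, 1, 1 and 5 counts in HDM and 1, 3, 1 and 1 in saline. It did not pass the filter on low counts and was not tested. At these totals a count of 0 would allow up to 3 counts, or 0.125 CPM in the smallest library and 0.0959 CPM in the largest, for counting error only, so most of its values lay at or below that limit. Fosl1 shares 1163 exon bases with Ccdc85b on the opposite strand, which had 24.2 to 37.2 CPM and was itself called higher (log2 fold change 0.37, edgeR adjusted p = 0.0213). Since the strand setting of the counting is not given, reads of the pair cannot be told apart. The same holds for Jun with its antisense gene Junos (232 bases, 1.38 to 2.21 CPM), Junb with Prdx2 (173 bases, 196 to 221 CPM, above Junb in every library, and a log2 fold change of 0.05) and Jund with Gm11175 (877 bases, 1.05 to 2.59 CPM).

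Atf3 (ENSMUSG00000026628, chromosome 1, 191170296 to 191218039), a stress-induced partner of Jun and a marker of injured sensory neurons, had 6.78, 9.14, 8.23 and 9.66 CPM in HDM and 7.18, 10.9, 9.47 and 6.13 CPM in saline. The ranges overlapped throughout, and the saline libraries held both the highest and the lowest value. The log2 fold change was 0.01 (SE 0.17, edgeR adjusted p = 0.991), and its 95% interval ran from 0.78-fold to 1.28-fold. Its CV of 25.7% in saline and 15% in HDM was above the 6.54% of counting. The log2 ratio of HDM to saline was 0.62 in batch 4 and −0.08 to −0.24 in the other batches. Its sign also turned under 4 other settings and without 4 of the 8 libraries, down to −0.12 without saline replicate 4.

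Maff (ENSMUSG00000042622, chromosome 15, 79346621 to 79359076), an inducible small Maf gene, had 3.26, 1.94, 3.10 and 2.94 CPM in HDM and 3.09, 2.52, 2.43 and 2.04 CPM in saline. HDM replicate 2 was the lowest library of all. The log2 fold change was 0.16 (SE 0.19, edgeR adjusted p = 0.697), and it was 0.30 without HDM replicate 2 and 0.07 without saline replicate 4. Mafg (ENSMUSG00000051510, chromosome 11, 120625117 to 120633600), a constitutive small Maf that pairs with the Nrf factors, had 172, 180, 180 and 181 CPM in HDM and 169, 181, 177 and 169 CPM in saline. Its log2 fold change was 0.03 (SE 0.041, edgeR adjusted p = 0.708), with the narrowest interval of the tested members, 0.96-fold to 1.09-fold, and it was −0.03 after the GC correction.

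Other basic leucine zipper genes that pair with or resemble AP-1 were read from the same fit. Counts at an unadjusted p under 0.05, for these and the lists that follow, compare with the 10.4% of all tested genes higher and 7.69% lower at that threshold. Called counts compare with 1.23% of all tested genes called higher and 0.159% called lower in edgeR. The shares called higher were 3.42% in DESeq2, 1.07% in limma-voom and 3.01% in edgeR with the replicate block. DESeq2 called 268 of 17618 genes lower. Of 20 tested, 1 rose and 0 fell (DESeq2 2 and 0, limma-voom 1 and 0; edgeR at an unadjusted p under 0.05, 5 and 1), and their median log2 fold change was −0.01, beside −0.01 over all tested genes. The called gene was Atf5, a stress-response factor of neurons and glia, with HDM libraries at 78.6 ± 3.51 CPM and saline libraries at 65.2 ± 1.11 CPM (log2 fold change 0.27, edgeR adjusted p = 0.0167, and 0.14 after the GC correction, adjusted p = 0.251). Its transcript GC content was 61.7%. It lost its call without HDM replicate 1, HDM replicate 2 or saline replicate 3 (edgeR adjusted p = 0.0905 to 0.0964). Nfe2l1, the gene of Nrf1, a partner of Mafg, had 0.17 (edgeR adjusted p = 0.0902) and passed with the replicate block (0.0296), in which 2 of the list and 4.05% of all tested genes were called in either direction. Jdp2, the gene of a Jun dimerisation protein that represses AP-1, had 0.30 (adjusted p = 0.122 in edgeR) and Creb1 −0.14 (0.158).

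Of 25 kinases, ligases and cofactors that act on AP-1 proteins, edgeR and limma-voom called 0 and DESeq2 2 as higher (edgeR at an unadjusted p under 0.05, 4 higher and 2 lower), with a median of −0.01. Mapk8ip1 and Mapk8ip3, scaffolds of the Jun kinase pathway, had log2 fold changes of 0.16 and 0.15 (edgeR adjusted p = 0.095 and 0.104) and passed with the replicate block (0.0413 and 0.0476). After the GC correction they had 0.04 and 0.05. The kinases Rps6ka3 and Map2k2 had −0.15 and 0.13. Of 18 tested regulators of Fos and Jun transcription, 0 were called by edgeR, DESeq2 or limma-voom (edgeR at an unadjusted p under 0.05, 1 higher and 1 lower; median 0.00). Srf, the serum response factor that acts on the Fos promoter, had 0.21 (edgeR adjusted p = 0.122), and 0.06 after the GC correction, and the transcription factor Mef2c had −0.12. The coactivator Crtc3 had 0.14 and the kinase Rps6ka5 −0.14.

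Immediate early genes of other families did not pass either. Of 23 tested, 0 were called by edgeR, DESeq2 or limma-voom (edgeR at an unadjusted p under 0.05, 1 higher and 2 lower; median 0.03). The smallest p belonged to the nuclear receptor Nr4a2 (log2 fold change −0.24, edgeR adjusted p = 0.216), followed by the kinase Sik1 (0.26), Klf4 (−0.36) and Nr4a3 (0.36). Of 20 tested genes known to hold AP-1 sites, 1 rose and 0 fell (DESeq2 2 and 1, limma-voom 1 and 0; edgeR at an unadjusted p under 0.05, 4 and 4), with a median of −0.06. The called gene was Vgf, a neuropeptide precursor (log2 fold change 0.49, edgeR adjusted p = 0.0354, and 0.34 after the GC correction, adjusted p = 0.214), for which the earlier results of these data were known. It lost its call in 5 of the 8 fits without a single library, those without HDM replicate 1, 2 or 4 or saline replicate 3 or 4 (edgeR adjusted p = 0.0537 to 0.146). With the replicate block Lmna, a nuclear lamin, also passed as higher (0.22, edgeR adjusted p = 0.0426) and Cd44, a hyaluronan receptor, as lower (−0.26, 0.0182). The block fit called 4.05% of all tested genes in either direction. With the GC correction and no block, Lmna had 0.17 and Cd44 −0.19 (edgeR adjusted p = 0.203 and 0.306). Nts, the neurotensin gene, had −0.38 (edgeR adjusted p = 0.122).

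Genes that accompany Atf3 and Jun after axon injury had a median of 0.02 over 20 tested. EdgeR and limma-voom called 0 and DESeq2 2 as higher (edgeR at an unadjusted p under 0.05, 5 higher and 1 lower). Gap43, a growth cone protein, had a mean of 391 ± 20.1 CPM in the HDM libraries and 346 ± 7.74 CPM in the saline libraries (log2 fold change 0.18, edgeR adjusted p = 0.0711, and 0.0321 with the replicate block), and 0.18 after the GC correction as well. Arg1, an arginase, had 0.55 (edgeR adjusted p = 0.128), the stress gene Gadd45a 0.26 and Flrt3, a membrane protein, −0.13.

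Libraries of 1 group also differed among themselves in AP-1 genes, and this was described by the deviation of log2(CPM + 0.5) from the group mean over the 8 libraries. Of 36 pairs of the 9 tested members, Atf3 and Mafg had the highest Pearson r (0.95), followed by Fos and Mafg (0.80) and Fos and Atf3 (0.72). These 3 genes were high in saline replicate 2 and low in HDM replicate 1, saline replicate 1 and saline replicate 4, the lowest library of Atf3. Jun and Jund had 0.66 and Jun and Junb −0.48, and the lowest value was −0.71 for Fosb and Jun. By ranks (Spearman rho) these 3 pairs had 0.60, −0.10 and −0.74, and Junb and Jund had 0.48. The median Pearson r over the 36 pairs was 0.10. Counting alone gives a CV of 5.02% for Fosl2, 5.26% for Junb and 8.63% for Fos. The CV between libraries was 3.78%, 5.53% and 3.60% in HDM and 3.33%, 4.56% and 10.2% in saline, in that order. Whether the deviations of these genes hold more than counting error was not tested. The points also share library depth and composition, and after the GC correction Atf3 and Mafg had a Pearson r of 0.71 and Jun and Jund 0.82. Other pairs moved as well. Fosb and Jund went from −0.56 to −0.97, the lowest value after the correction. Fosl2 and Junb went from −0.03 to −0.72, and Junb and Jund from 0.12 to −0.44.

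Over 15211 other genes with at least 1 CPM, the closest patterns to Fos were those of Dcps (r = 0.98), Stk16 (0.97) and Nfil3 (0.96), and those closest to Atf3 were B9d1 (0.98), Dusp10 (0.98) and Slc40a1 (0.97). These 6 values were at least 0.95 after the GC correction. The closest to Junb were Palb2, Aven and B3gnt9 (0.98 to 0.99), with 0.70 to 0.90 after it, and the closest to Jund Tsen34, Alad and Cdh13 (0.96 to 0.98), with 0.47 to 0.89. With 8 libraries such values are a description: 25 genes exceeded 0.9 with Fos, 99 with Junb, 29 with Jund and 24 with Atf3. Those of Fos and Junb carry the limit from counting error given above.

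**Figure D5:**
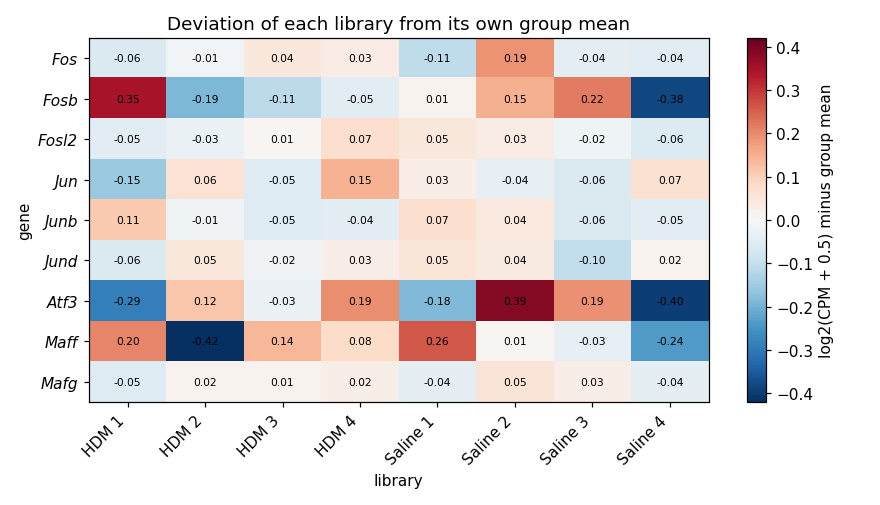
Deviation of log2(CPM + 0.5) from the mean of its own group for the 9 tested AP-1 genes (rows) in the 8 libraries (columns); red is above and blue below the group mean. Atf3 and Fos are highest in saline replicate 2 (0.39 and 0.19), and Junb and Jund stay within 0.11 of their group means.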

How the data were processed

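RNA of vagal ganglia from HDM-treated and saline-treated mice was sequenced in 8 libraries with paired reads of 50 bp from a stranded mRNA kit, per the labels' protocols. The deposited values are raw counts per gene. The submitters' processing notes name featureCounts and GRCm38 (mm10). The sources used here give no aligner, tool version or strand setting. The labels name the column of each library.

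The 10 members, the gene lists and the marker lists were chosen with earlier results of these data known. Symbols, spans and transcript GC content (longest transcript, known for 99.9% of tested genes) came from GENCODE M21, and promoter sequences from RefSeq (GRCm38.p6, 9 of 10 members matched). The filterByExpr step of edgeR 4.0.16 (R 4.3.3) left 17618 of 55335 genes. Counts were scaled by TMM factors. The main test was the quasi-likelihood F-test of edgeR, 2-sided, with a model of group alone and p-values adjusted over all tested genes by Benjamini-Hochberg. SE and 95% intervals follow from the F statistic. RPKM used the length in the deposited table. The group-only fit was tested on simulated data for HDM against saline (17429 genes, 200 of them changed): it called 67.3% of the genes changed 1.5-fold, 41.4% of those changed 1.25-fold and 8 unchanged genes. The simulated libraries held no GC trend and no batch difference, so these numbers do not cover errors that come with either.

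The batch labels pair the libraries. Over genes with a mean of at least 1 CPM, the correlation of deviations within a pair was −0.04 to 0.10. With the replicate block, however, edgeR called 4.05% of tested genes in either direction, against 1.38% with group alone. Named genes are all members, up to 4 genes of each pathway list with the smallest p, and the 3 genes most like each of Fos, Junb, Jund and Atf3, without symbols of predicted genes. Alternatives were other size factors, 2 filters, DESeq2 1.42.0, limma-voom (limma 3.58.1), the block, a GC correction, both together, and leaving out each library. The GC correction was an offset per library from a natural spline (4 df) of log2 CPM against GC, using genes whose mean log2 CPM was over 3.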

Additional observations from a re-analysis of the deposited data

Results flagged for a closer look

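In groups of 4 libraries, a library was singled out when its gap to the nearest other library exceeded the 95% critical value of Dixon's ratio of gap to range, a limit that chance passes in about 1 of 20 groups. Of the 20 groups of AP-1 values examined, 2 did so. Mafg had 172 CPM in HDM replicate 1, against 180 to 181 CPM in the other HDM libraries, and its saline range of 169 to 181 CPM covered all of these values. Fosl1 had 0.0956 CPM in saline replicate 2, against 0.0325 to 0.0368 CPM in the other saline libraries, which is 3 counts against 1 count each.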

How the results depend on the processing

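Values are given as higher and lower genes. Of all tested genes 216 and 28 were called. The counts were 421 and 301 without a filter, 603 and 268 in DESeq2, 531 and 182 with the replicate block, 0 and 0 with the GC correction, 33 and 7 with the replicate block and GC correction, and 0 to 288 and 0 to 88 when 1 library was left out. Of the AP-1 genes 2 and 0 were called, 3 and 0 in DESeq2 (Jun added), 0 with the GC correction, 0 with the replicate block and GC correction, and 0 to 2 when 1 library was left out. The block changed no call of an AP-1 gene. Over the 6 pathway lists 2 and 0 were called, 6 and 4 without a filter, 8 and 1 in DESeq2, 7 and 1 with the replicate block, 0 and 0 with the GC correction, alone or with the replicate block, and 0 to 3 and 0 to 1 when 1 library was left out. The log2 fold change of Atf3, 0.01, turned to −0.0067 without a filter, −0.00011 with the filter of 1 CPM in 4 libraries, −0.025 with the GC correction and −0.0072 with the replicate block and GC correction, and ran from −0.12 to 0.15 without single libraries. That of Mafg, 0.03, turned to −0.035 with the GC correction and −0.034 with the replicate block and GC correction. Fos, Fosb, Fosl2, Jun, Junb, Jund and Maff kept their sign in all 17 alternatives. The cause of these changes was not tested, and a fit without a library has fewer samples. Depth limits Fosl1, Fosb and Maff most.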
